A study of Mus musculus with 5 samples.

Results

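Expression of 10 genes of the collecting duct principal cell was followed in injured mouse kidneys with and without tubular Prdm16. They are the water channel genes Aqp2, Aqp3 and Aqp4, the vasopressin receptor gene Avpr2, the epithelial sodium channel (ENaC) subunit genes Scnn1a, Scnn1b and Scnn1g, the mineralocorticoid genes Hsd11b2 and Nr3c2, and the transcription factor gene Gata3. They were found by symbol among 35478 genes listed, and all 10 passed the filter on low counts that left 16394 genes for testing. The control group was 2 littermate Prdm16fl/fl mice, numbered 1 and 3, and the other group was 3 Ksp-Cre/Prdm16fl/fl mice, numbered 1, 2 and 3. Every mouse carried the floxed Prdm16 allele, with loxP sites around exon 9, was male and 7 to 8 weeks old. The strain label and the study's methods give C57BL/6J;129, and the sample titles give C57BL/6J. Every mouse also had unilateral ischemia-reperfusion injury (UIRI): the left renal pedicle was clamped for 35 minutes at 38.5°C, the right kidney was taken out on day 10, and the injured kidney was collected 24 hours later, on day 11. Ksp-Cre drives Cre from the promoter of Cdh16, which is active in tubular epithelium and not in 1 tubule type alone. No uninjured kidneys were analysed here, so every value below describes injured tissue.

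In principal cells, vasopressin binds its receptor on the blood side, raises cAMP and moves AQP2 into the urine-side membrane, and water leaves the cell on the blood side through AQP3 and AQP4. Sodium enters through ENaC, which is built of alpha, beta and gamma subunits. Aldosterone acts on ENaC through the mineralocorticoid receptor NR3C2, and HSD11B2 keeps that receptor free for aldosterone by inactivating glucocorticoids. In ischemic injury, loss of AQP2 and ENaC from the collecting duct is a known part of the concentrating defect.

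The libraries held 14939040 to 16425161 counts. CPM here are counts per 1000000 after scaling with the trimmed mean of M values (TMM), which allows for a few very abundant genes. Prdm16 was 25.3 and 20 CPM in the controls and 17.1, 17.0 and 18.0 CPM in the Ksp-Cre/Prdm16fl/fl mice (log2 fold change -0.38, edgeR quasi-likelihood test, Benjamini-Hochberg adjusted p = 0.259). Reads were counted over the whole gene, so this does not measure the loss of exon 9. Cdh16 was 980 and 944 CPM against 868, 890 and 575 CPM (adjusted p = 0.497). Ksp-Cre/Prdm16fl/fl mouse 3 stood apart from the other libraries: the Pearson correlation of its log2 CPM with theirs, over genes, was 0.943 to 0.960, against 0.970 to 0.991 among the other libraries. Without that mouse 502 genes were called lower and 231 higher in place of 103 and 13, and without any other 1 of the mice none was called. Values without it are given where they change a call.

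Per length of transcript, Hsd11b2 and Aqp2 were the highest of the 10 genes and Aqp4 the lowest. FPKM (fragments per kilobase of transcript and per 1000000 counted reads) of Hsd11b2 averaged 131 ± 21.5 in the controls (SD, n = 2) and 82.5 ± 32.4 in Ksp-Cre/Prdm16fl/fl mice (SD, n = 3). Aqp2 averaged 88.6 ± 2.76 and 82.4 ± 34.8 FPKM. Hsd11b2 ranked first in 4 of the 5 libraries, and Aqp2 ranked first in Ksp-Cre/Prdm16fl/fl mouse 3. The ENaC subunits and Aqp3 formed the next tier, between 10.2 FPKM for Scnn1g in Ksp-Cre/Prdm16fl/fl mouse 3 and 46.5 FPKM for Aqp3 in control 1, and their order changed from mouse to mouse. Avpr2 came below them at 2.74 to 10.9 FPKM, Gata3 at 3.66 to 6.63 FPKM and Nr3c2 at 1.38 to 3.09 FPKM. Aqp4, at 0.222 to 1.91 FPKM, was last in every library. On the log2 scale, the 2 controls differed more in Aqp4 than in any other of the 10 genes.

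**Figure D1:**
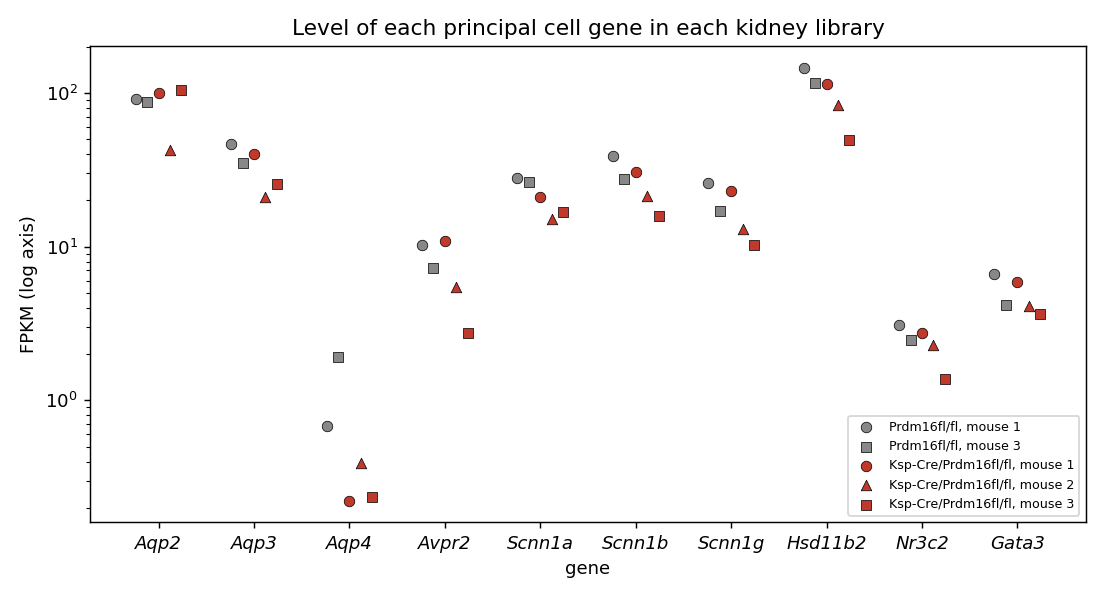
FPKM of each gene on a log axis, with 1 point per library: grey points are the 2 Prdm16fl/fl mice and red points the 3 Ksp-Cre/Prdm16fl/fl mice. Levels ran from 0.222 FPKM for Aqp4 to 146 FPKM for Hsd11b2, and in Aqp4, Scnn1a and Hsd11b2 every red point was under both grey points.

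Aqp2, the vasopressin-regulated water channel, lies on chromosome 15 from 99476937 to 99482426 on the plus strand in the coordinates of the files, whose mouse build is not given in the sources used here. Its level was 132 CPM in each control and 132, 57.1 and 153 CPM in the Ksp-Cre/Prdm16fl/fl mice 1, 2 and 3. Mouse 1 was level with the controls, mouse 2 was under all of the other mice, and mouse 3 had the highest Aqp2 of all 5. The log2 fold change was -0.21 (SE 0.39, 95% interval -1.15 to 0.74, edgeR adjusted p = 0.809), and it turned to 0.12 without mouse 2.

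Aqp3, the basolateral water and glycerol channel, was 84.1 and 65.7 CPM in the controls and 66.0, 35.2 and 46.8 CPM in the Ksp-Cre/Prdm16fl/fl mice. Mouse 1 overlapped with control 3, and mice 2 and 3 were under both controls. The log2 fold change was -0.60 (SE 0.27, edgeR adjusted p = 0.300). Aqp4, the other basolateral water channel, is also known from the last segment of the mouse proximal tubule. It gave 62 and 171 counts in the controls and 22, 38 and 22 counts in the Ksp-Cre/Prdm16fl/fl mice, or 4.18 and 12.3 CPM against 1.25, 2.24 and 1.47 CPM. All 3 Ksp-Cre/Prdm16fl/fl mice were below both controls, and control 3 was far above control 1. Aqp4 had the lowest log2 fold change of the 10 genes, -2.31 (SE 0.51), with an edgeR adjusted p of 0.0921, and without control 3 it was -1.33. It passed 0.05 with DESeq2 (adjusted p = 0.00128), with no filter beyond 1 count (0.0483) and without Ksp-Cre/Prdm16fl/fl mouse 3 (0.0193), and its adjusted p ran from 0.00128 to 0.599 over 12 alternatives. Slc7a13, a transporter of the last proximal tubule segment, was named here after its values were seen. It was 260 and 391 CPM in the controls and 35.3, 55.9 and 3.13 CPM in the Ksp-Cre/Prdm16fl/fl mice. Both genes were higher in control 3 than in control 1 and highest of the Ksp-Cre/Prdm16fl/fl group in mouse 2. In that group Slc7a13 was lowest in mouse 3, whereas Aqp4 was lowest in mouse 1. Other proximal tubule markers varied in order: Lrp2 and Aqp1 were highest of that group in mouse 2, Kap and Slc27a2 in mouse 3. The part of proximal tubule RNA in the Aqp4 result was not tested.

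Avpr2, the vasopressin receptor gene of the principal cell, lies on the X chromosome from 72935371 to 72938034 on the plus strand. It was 20.4 and 15.1 CPM in the controls and 19.6, 10.1 and 5.46 CPM in the Ksp-Cre/Prdm16fl/fl mice. Mouse 1 sat among the controls and mouse 3 had the lowest level of all 5, on 82 counts. The log2 fold change was -0.60 (SE 0.50, 95% interval -1.80 to 0.61, edgeR adjusted p = 0.555). Ksp-Cre/Prdm16fl/fl mouse 3 thus combined the highest Aqp2 with the lowest Avpr2.

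The promoters of Aqp2 and Avpr2 are shown because the channel and its receptor gene stood at opposite ends of their range in that mouse. RefSeq promoters of build GRCm38.p6 matched 7 of the 10 symbols, and the 250 bases before the start were searched on both strands for AGATAA (bound by GATA factors), TGACG (the core of a cAMP response element) and AGAACA (an arm of the steroid receptor element). The Aqp2 window is chr15:99578806-99579055 on the plus strand, and the Avpr2 window is chrX:73891852-73892101 on the plus strand. Capitals mark the matches. On the other strand TGACG reads as CGTCA, while AGATAA reads as TTATCT there, whereas AGAACA reads as TGTTCT.
Aqp2: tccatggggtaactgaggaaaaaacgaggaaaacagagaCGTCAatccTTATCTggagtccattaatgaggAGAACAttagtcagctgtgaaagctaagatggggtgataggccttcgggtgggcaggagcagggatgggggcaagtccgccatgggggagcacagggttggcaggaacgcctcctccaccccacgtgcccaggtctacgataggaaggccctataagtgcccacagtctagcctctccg
Avpr2: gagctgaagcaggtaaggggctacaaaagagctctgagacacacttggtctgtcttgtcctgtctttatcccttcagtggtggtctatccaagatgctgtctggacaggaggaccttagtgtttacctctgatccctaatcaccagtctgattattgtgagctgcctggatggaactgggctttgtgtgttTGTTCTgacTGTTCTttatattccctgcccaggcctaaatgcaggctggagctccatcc

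The Aqp2 window held 1 TGACG core at 211 to 207 bases before the start, 1 GATA motif at 202 to 197 and 1 AGAACA at 179 to 174, and none of the 3 matches overlapped another. The Avpr2 window held 2 AGAACA matches, at 59 to 54 and 50 to 45 bases before the start, and neither of the other motifs. Over 32851 RefSeq promoter windows of the same length, 9.99% held AGATAA, 17.8% held TGACG, 16.1% held AGAACA, and 1.18% held both AGATAA and TGACG. The windows of Aqp3, Scnn1b, Scnn1g, Nr3c2 and Gata3 held none of these letters. A match of letters is a description of the sequence and no measure of a factor bound there.

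Scnn1a, the alpha subunit of ENaC, lies on chromosome 6 from 125290978 to 125321906 on the plus strand. It was 138 and 135 CPM in the controls and 93.5, 68.5 and 83.6 CPM in the Ksp-Cre/Prdm16fl/fl mice. The controls nearly coincided, and all 3 Ksp-Cre/Prdm16fl/fl mice were clearly under them. Its log2 fold change of -0.74 had the smallest SE of the 10 genes, 0.15 (95% interval -1.11 to -0.36), and the edgeR adjusted p was 0.0787. The adjusted p was 0.00551 with DESeq2 and 0.0107 without Ksp-Cre/Prdm16fl/fl mouse 3, and ran up to 0.540 over 14 alternatives.

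Scnn1b and Scnn1g, the beta and gamma subunits, are neighbours on the plus strand of chromosome 7, with 96555 bases between them in the files. Scnn1b was 113 and 84.0 CPM in the controls and 80.8, 58.2 and 46.3 CPM in the Ksp-Cre/Prdm16fl/fl mice (log2 fold change -0.67, SE 0.25, edgeR adjusted p = 0.236). Scnn1g was 81.0 and 56.1 CPM against 65.5, 37.7 and 32.1 CPM (log2 fold change -0.60, SE 0.33, edgeR adjusted p = 0.380). For Scnn1b the groups did not overlap in CPM, though mouse 1 came close to control 3, and for Scnn1g mouse 1 lay between the controls. Both were lowest in mouse 3, whereas Scnn1a was lowest in mouse 2.

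Hsd11b2, the enzyme that guards the mineralocorticoid receptor, lies on chromosome 8 from 106245378 to 106250620 on the plus strand. It was 277 and 229 CPM in the controls and 197, 147 and 94.7 CPM in the Ksp-Cre/Prdm16fl/fl mice. The groups did not overlap, and mouse 3 was lowest. The log2 fold change was -0.79 (SE 0.30, edgeR adjusted p = 0.233), and without mouse 3 it shrank to -0.55 with a smaller SE and an adjusted p of 0.0451, the lowest over its 14 alternatives, of which the highest was 0.694. Nr3c2, the mineralocorticoid receptor gene on chromosome 8 from 77624711 to 77971641, was 28.4 and 23.8 CPM in the controls and 22.8, 19.4 and 12.8 CPM in the Ksp-Cre/Prdm16fl/fl mice. Mouse 1 was just under control 3 and mouse 3 was again lowest. The log2 fold change was -0.51 (SE 0.26, edgeR adjusted p = 0.346).

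Gata3, a transcription factor gene needed for collecting duct development, lies on chromosome 2 from 9861889 to 9892762 on the minus strand. It was 26.4 and 17.5 CPM in the controls and 21.3, 15.1 and 14.7 CPM in the Ksp-Cre/Prdm16fl/fl mice. The 2 controls differed from each other by more than the genotypes did, and mouse 1 lay between them. The log2 fold change was -0.37 (SE 0.25, edgeR adjusted p = 0.481).

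None of the 10 genes passed an adjusted p of 0.05, with or without a log2 fold change of at least 1, and 4 did at an unadjusted p of 0.05 in the same test, all of them lower (Scnn1a, Aqp4, Hsd11b2 and Scnn1b). Of all genes tested, 0.976% passed the adjusted p alone (0.872% lower and 0.104% higher), 0.708% passed it with the fold threshold (0.628% lower and 0.0793% higher), and 18.8% passed the unadjusted p (11.2% lower). With DESeq2 2 of the 10 passed the adjusted p, where 7.32% of all genes did, and without Ksp-Cre/Prdm16fl/fl mouse 3 the edgeR test passed 3 of the 10, where 18.9% of all genes passed. With limma none of the 9 that could be tested passed, where 0.517% and 0.367% of genes did on log2(FPKM + 1) and log2(FPKM + 0.1). All 10 log2 fold changes were under 0, against 46.0% of all genes, and their median was -0.60 against 0.038 over all genes. In 5 of the 10 no Ksp-Cre/Prdm16fl/fl mouse reached the lower control, as in 21.3% of all genes, and in none was every Ksp-Cre/Prdm16fl/fl mouse above both controls, as in 20.3%. In FPKM, which has no TMM scaling, only 3 of the 10 were so separated (Aqp4, Scnn1a and Hsd11b2), as were 15.2% of all genes, because mouse 1 exceeded control 3 in Scnn1b and Nr3c2. The 10 genes share cells and libraries, so these counts are not independent of each other. In bulk kidney RNA, fewer principal cells, less RNA per cell and a change in RNA of these genes from other cells cannot be told apart.

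**Figure D2:**
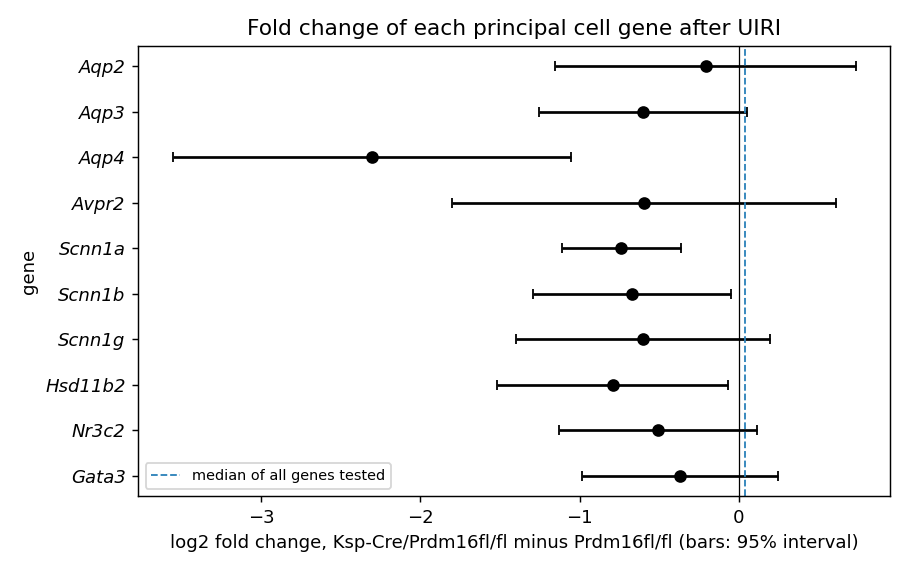
Points are log2 fold changes of Ksp-Cre/Prdm16fl/fl against Prdm16fl/fl mice and bars their 95% intervals; the dashed line is the median of all genes tested, 0.038. All 10 points lay under 0, and the intervals of Aqp4, Scnn1a, Scnn1b and Hsd11b2 lay wholly under 0 before adjustment for the number of genes tested.

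The 3 Ksp-Cre/Prdm16fl/fl mice differed from each other more than this average shows. Against the mean log2 CPM of the 2 controls, the median difference of the 10 genes was -0.18 in mouse 1, -0.81 in mouse 2 and -1.04 in mouse 3. Mouse 1 was therefore about as far under the mean of the controls as control 3, whose median difference was -0.16, and its largest departure was Aqp4 at -2.41. Mouse 2 was lower in all 10 genes, with Aqp2, Aqp3 and Scnn1a lower than in any other mouse. Mouse 3 was lowest of the Ksp-Cre/Prdm16fl/fl mice for 6 genes, yet its Aqp2 lay 0.21 above the mean of the controls. Control 1 was above control 3 in 8 of the 10 genes, level in Aqp2 and lower in Aqp4.

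**Figure D3:**
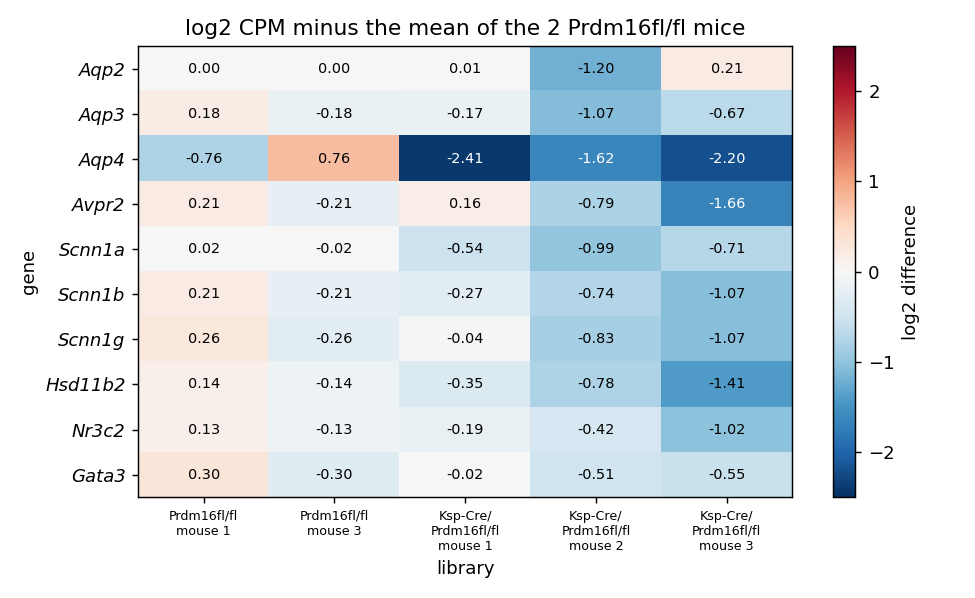
Each cell gives a gene's log2 CPM in a library minus the mean of the 2 Prdm16fl/fl mice, blue where lower and red where higher. Ksp-Cre/Prdm16fl/fl mouse 1 was near 0 for most genes, mouse 2 was lower throughout, and mouse 3 was lower except in Aqp2 (0.21).

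Ratios of members within a library do not depend on its depth or scaling. Of 7 such ratios of FPKM, chosen by role, none passed the exact two-sided permutation test over the 5 libraries, which cannot go below p = 0.2 with 2 mice against 3. The ratio of Nr3c2 to Hsd11b2 was the only one of the 7 whose groups did not overlap: 0.0212 and 0.0214 in the controls and 0.0238, 0.0273 and 0.0278 in the Ksp-Cre/Prdm16fl/fl mice. The ratio was above both controls in 3 of 3 mice, and the group means differed by 0.30 on the log2 scale (exact permutation p = 0.2, Benjamini-Hochberg adjusted over the 7 ratios 0.933). With a mouse left out the difference ran from 0.26 to 0.37, and its sign could not change because the groups did not overlap.

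Within ENaC, the ratio of Scnn1b to Scnn1a was 1.37 and 1.05 in the controls and 1.45, 1.43 and 0.932 in the Ksp-Cre/Prdm16fl/fl mice. The ratio of Scnn1g to Scnn1a was 0.917 and 0.653 against 1.10, 0.864 and 0.602. Their mean differences of 0.056 and 0.10 (log2) were smaller than the spread between the controls, and each turned negative with some mice left out. The receptor to channel ratio of Avpr2 to Aqp2 was 0.113 and 0.0841 in the controls and 0.108, 0.129 and 0.0262 in the Ksp-Cre/Prdm16fl/fl mice. Mouse 3 alone set the mean difference of -0.45 (log2), which was 0.28 without it.

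Aqp3 to Aqp2 was 0.513 and 0.401 in the controls and 0.400, 0.496 and 0.246 in the Ksp-Cre/Prdm16fl/fl mice, a difference of -0.31 (log2) that ran from -0.53 to -0.027 with a mouse left out. Aqp4 to Aqp2 was 0.00749 and 0.0220 in the controls and 0.00222, 0.00927 and 0.00226 in the Ksp-Cre/Prdm16fl/fl mice, a difference of -1.83 (log2), or -2.61 to -1.06 with a mouse left out, and mouse 2 lay between the controls. Gata3 to Aqp2 differed by -0.031 (log2), and both of its groups spanned a wide range.

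**Figure D4:**
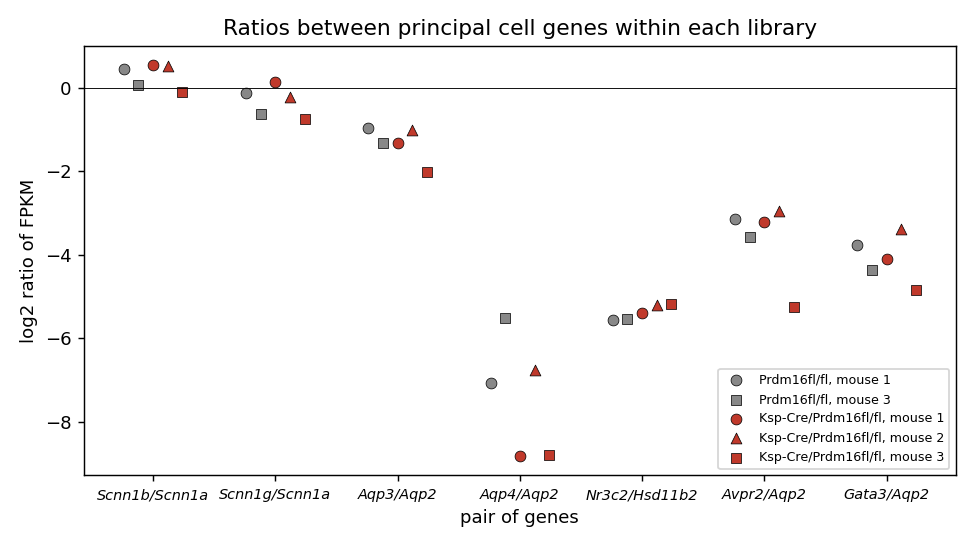
The log2 ratio of FPKM between a pair of genes, with 1 point per library in grey (Prdm16fl/fl) or red (Ksp-Cre/Prdm16fl/fl). The red points lie above both grey points for Nr3c2 to Hsd11b2 (difference 0.30), and the lowest point for Avpr2 to Aqp2 is Ksp-Cre/Prdm16fl/fl mouse 3 (ratio 0.0262).

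The 5 genes nearest to Aqp2 in their pattern over the mice were all from outside the 10 genes. By Euclidean distance of log2 CPM centred over the 5 libraries, the nearest of 11378 genes compared were Cwh43 (distance 0.363), B830017H08Rik (0.610), S1pr1 (0.656), Cd300lg (0.658) and Ufsp1 (0.675). Cwh43 ran at 21.8 and 19.5 CPM in the controls and 18.0, 10.8 and 24.1 CPM in the Ksp-Cre/Prdm16fl/fl mice, with the dip in mouse 2 and the high value in mouse 3 that Aqp2 showed. Of the other members compared, Aqp3 was the nearest, in place 122 at a distance of 0.845, followed by Scnn1a in place 493 and Gata3 in place 3160. Like Aqp2, both Aqp3 and Scnn1a were lowest of all mice in Ksp-Cre/Prdm16fl/fl mouse 2. Avpr2 was in place 10749, and Aqp4 was under the minimum level for this comparison. With 5 libraries, such distances are a description only.

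Genes that act on these channels were split between higher and lower. Of 22 genes of vasopressin and cAMP signalling, 14 had a log2 fold change over 0 and 8 under it, none passed an adjusted p of 0.05, 1 had an unadjusted p under 0.05, and their median log2 fold change was 0.12. The largest was Akap12, a scaffold of protein kinase A, at 57 and 64.6 CPM in the controls and 127, 96.8 and 235 CPM in the Ksp-Cre/Prdm16fl/fl mice (log2 fold change 1.33, edgeR adjusted p = 0.150). Next were Adcy3, an adenylyl cyclase (0.53), and Ezr, a linker of membrane and actin (0.46). Among the low values in that list were the prostaglandin receptor gene Ptger3 (-0.32) and the syntaxin gene Stx4a (-0.30).

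Of 21 tested genes of the aldosterone response and ENaC regulation, 10 had a log2 fold change over 0 and 11 under it, around a median of -0.00024. Klk1, the tissue kallikrein gene of the connecting tubule, alone passed the adjusted p and fell from 2134 and 2235 CPM in the controls to 1001, 683 and 713 CPM (log2 fold change -1.45, SE 0.21, edgeR adjusted p = 0.0465). Its groups were well apart, but the call was lost with library size or upper quartile scaling, with limma and without any 1 mouse other than mouse 3, and 8 genes of the list passed without mouse 3. Mtor (-0.62) and the deubiquitinase Usp2 (-0.87, adjusted p = 0.0548) were the other low values. The channel-cleaving protease Tmprss4 (1.08), the protease Plau (0.57) and the scaffold Cnksr3 (0.48) were the largest, none past the threshold.

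Of 11 tested genes of potassium secretion and the sodium pump, 3 had a log2 fold change over 0 and 8 under it, none passed, 3 had an unadjusted p under 0.05, and the median was -0.36. Fxyd2, the gamma subunit of the sodium pump, was 1590 and 1798 CPM in the controls and 951, 844 and 928 CPM in the Ksp-Cre/Prdm16fl/fl mice (-0.90, edgeR adjusted p = 0.0548), and is also abundant in other nephron segments. The potassium channel genes Kcnj10 (-0.74) and Kcnj1, which encodes the secretory channel ROMK (-0.73), were the next lowest, and Kcnma1 (0.40), Kcnk1 (0.32) and Cftr (0.31) the highest.

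Of 18 tested collecting duct transcription factor and signal genes, 9 had a log2 fold change over 0 and 9 under it, none passed, 5 had an unadjusted p under 0.05, and the median was -0.017, which turned to 0.097 with library size scaling. With DESeq2, 1 gene of this list, 1 of the vasopressin list, 2 of the aldosterone list and 2 of the potassium and pump list passed the adjusted p. The largest were the ligand Wnt7b (1.31) and the epithelial factors Elf3 (0.72, edgeR adjusted p = 0.0516) and Grhl2 (0.41), and the lowest Elf5 (-0.87), Lhx1 (-0.72) and Wnt9b (-0.50). The summed level of this list was 1630 and 1588 CPM in the controls and 1508, 1550 and 1546 CPM in the Ksp-Cre/Prdm16fl/fl mice, so the mice were within a narrow range of each other. The summed level of the 10 channel and receptor genes was 904 and 770 CPM against 701, 450 and 490 CPM. The difference between these lists was not tested.

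**Figure D5:**
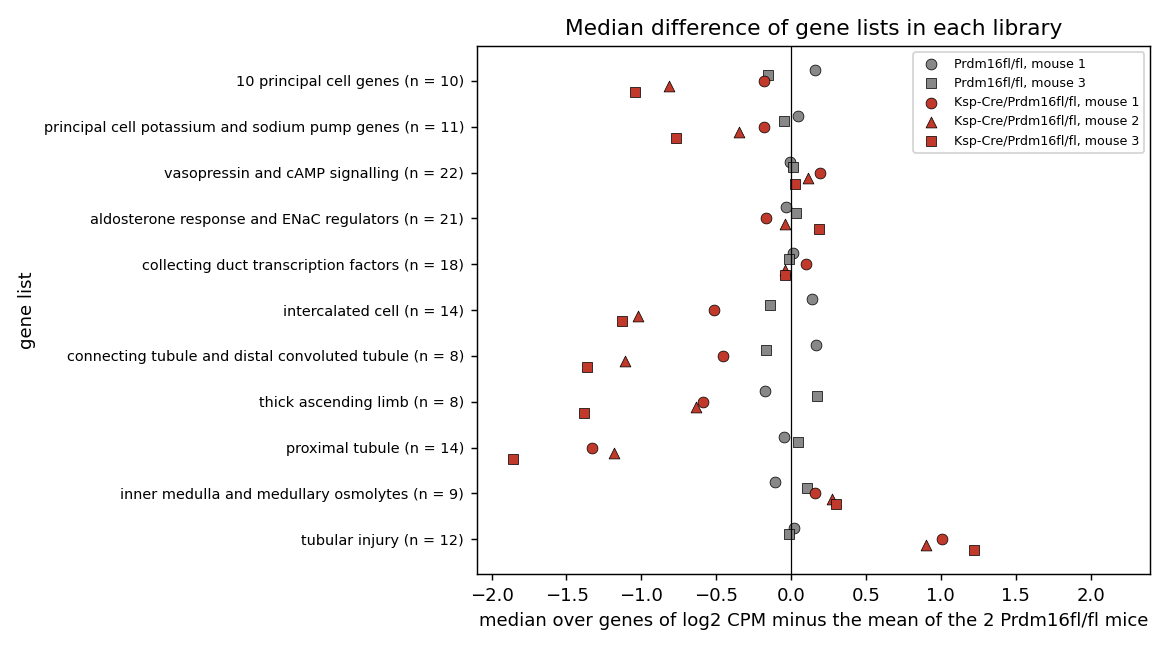
For each gene list, points give the median over genes of log2 CPM minus the mean of the 2 Prdm16fl/fl mice, with grey for Prdm16fl/fl and red for Ksp-Cre/Prdm16fl/fl libraries. The 10 principal cell genes lay at -0.18, -0.81 and -1.04 in the Ksp-Cre/Prdm16fl/fl mice, proximal tubule genes at -1.33, -1.18 and -1.86, and collecting duct transcription factors within 0.097 of 0.

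Markers of other tubule segments were lower beside the principal cell genes. Of 14 intercalated cell markers, which share the collecting duct, 13 were lower with a median of -0.90, and Slc4a9 passed (adjusted p = 0.0412). Their summed level was 1965 and 1856 CPM in the controls and 1365, 1220 and 771 CPM in the Ksp-Cre/Prdm16fl/fl mice, with mouse 3 lowest. Of 8 connecting and distal convoluted tubule markers, 7 were lower with a median of -1.0, and Klhl3 passed (adjusted p = 0.0467). Of 8 thick ascending limb markers, 7 were lower with a median of -0.76, and none passed. All 14 proximal tubule markers were lower with a median of -1.40, and 3 passed. All 12 tubular injury markers were higher with a median of 1.14, and Krt19 passed (adjusted p = 0.0412). With DESeq2 the genes that passed numbered 5 in the intercalated, 2 in the connecting and distal convoluted tubule, 5 in the thick ascending limb, 8 in the proximal tubule and 9 in the injury list. With library size scaling and with limma, none passed in the intercalated list or in that of the connecting and distal convoluted tubule, and in the latter none passed with upper quartile scaling either.

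A list of inner medulla markers and medullary osmolyte genes was mostly higher. Its summed level, most of it from the taurine transporter gene Slc6a6 and the osmotic response gene Nfat5, was 760 and 783 CPM in the controls and 848, 870 and 1208 CPM in the Ksp-Cre/Prdm16fl/fl mice, 6 of 9 were higher, and the median was 0.23. Slc14a2, the urea transporter gene of the inner medullary collecting duct, named here after its values were seen, was 0.270 and 4.16 CPM in the controls and 9.71, 7.27 and 23.9 CPM in the Ksp-Cre/Prdm16fl/fl mice. It was highest in mouse 3 and lowest in control 1. The labels name kidney as the tissue and the methods its cortex, and the depth of the tissue taken from each kidney was not tested.

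Lists of other cell types were more mixed. All 8 podocyte markers were lower with a median of -0.54, and Nphs1 passed (adjusted p = 0.0412), while 4 passed with DESeq2 and none with library size scaling or limma. Of 8 fibroblast markers 7 were higher with a median of 0.50, and of 10 macrophage markers 8 were higher with a median of 0.26. Of 8 endothelial markers 3 were higher, with a median of -0.090. The mesangial list holds Gata3 itself. Of its other 7 genes 4 were higher, with a median of 0.23, and over all 8 the median was 0.028. Of 8 T cell markers, which matter here because T cells also express Gata3, 3 were higher with a median of -0.17, and their summed level was 46.0 to 83.1 CPM over all libraries. Only 4 of 8 urothelial markers could be tested, all lower with a median of -0.37 and a range of -4.34 to -0.013. The summed level of the 8 was 8.49 and 10.3 CPM in the controls. In the Ksp-Cre/Prdm16fl/fl mice it was 5.90, 4.61 and 5.73 CPM, all under both controls. RNA of the renal pelvis lining was thus scarce in every library, and scarcer in the Ksp-Cre/Prdm16fl/fl mice. Without any 1 mouse other than mouse 3, no marker gene of any of these lists passed. The part of these segment and cell type differences in the values of the 10 genes was not tested.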

How the data were processed

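Kidney RNA-seq of 5 mice, 1 library per mouse, was grouped by genotype from the sample labels. The authors deposited, per gene, the raw count of reads without normalization, the TPM and the FPKM made from it. Both recomputed from the counts to within rounding. The labels' processing notes name CASAVA, featureCounts 2.0.1, DESeq2 1.16.1 and hg38, a human build, although the genes are mouse genes. The aligner and mouse build are not given in the sources used here, nor whether counting used the strand, so overlapping and antisense genes are uncertain. Of the 10 genes, 1 has the same start in the files as in GRCm38.

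Broken lines of 5 genes were rejoined. Counts were filtered with filterByExpr, scaled with TMM and tested with the quasi-likelihood test of edgeR 4.0.16 without covariates (R 4.3.3). Called genes had to pass 0.05 after Benjamini-Hochberg adjustment and differ by 1 or more on the log2 scale. TPM was used only for the check above, and log2 CPM had a prior count of 2. Genes near Aqp2 were sought where the mean log2 CPM was 3 or more. Alternatives were DESeq2 1.42.0, its size factors in edgeR, library size and upper quartile scaling, 2 other filters, limma 3.58.1 on log2(FPKM + 1) and log2(FPKM + 0.1), the mouse number as a block, and leaving out each mouse. Leaving out mice from the ratios was chosen after seeing the data. The fits were tested on simulated data.

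Genes named are the 10 members, in each pathway list those with an adjusted p under 0.05 and the 3 largest and 3 smallest, up to 2 genes of each marker list, Prdm16, Cdh16 and the 5 genes nearest to Aqp2; any other was named after its values were seen, and some genes that the rule names are not reported here. Marker genes that passed are named among these others. The members and lists were chosen with earlier results of these data known. Spink3, Trbc1 and Trbc2 were not matched and not analysed here; Kcnmb4 and Foxa1 did not pass the filter. Python 3.11.15 with pandas 2.3.3, scipy 1.17.1 and matplotlib 3.10.9 was used.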

Additional observations from a re-analysis of the deposited data

How the results depend on the processing

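Of the 10 genes, 9 were lower under every alternative and 6 kept both direction and side of the threshold under all of theirs. The exception in direction was Aqp2, at 0.11 with the replicate block and 0.12 without Ksp-Cre/Prdm16fl/fl mouse 2, so that 1 gene was then higher. Members past an adjusted p of 0.05 numbered 2 with DESeq2 (Aqp4 at -2.32 and Scnn1a at -0.74), 1 with no filter beyond 1 count (Aqp4 at -2.30) and 0 to 3 with a mouse left out, and 1, 1 and 0 to 1 of them passed with the fold threshold. With a mouse left out Aqp4 ran from -2.89 to -1.33, Scnn1a from -0.84 to -0.62 and Hsd11b2 from -1.07 to -0.55; Aqp2 ran from -0.47 to 0.12.

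Genes called lower and higher over the whole table were 381 and 112 with DESeq2, 250 and 37 with no filter beyond 1 count, 0 to 502 and 0 to 231 with a mouse left out. Lower calls were 34 with library size scaling, 41 with limma on log2(FPKM + 1) and 30 with log2(FPKM + 0.1). Library size scaling moved the median of all genes to 0.15 and the limma fits to 0.11 and 0.13. Aqp4 was under the FPKM filter of the limma fits. The causes were not tested.

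The correlation over genes of deviations from the group mean was 0.0010 and -0.022 for same-numbered mice. For pairs of different number it ran from -0.039 to 0.039. Deviations of the 2 controls mirror each other, so this check cannot decide whether the mouse numbers pair the libraries. With the block, 0 genes were called in either direction.

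The median of the aldosterone list, near 0, turned to 0.11 with library size scaling, 0.0087 with upper quartile scaling, 0.00077 with no filter, 0.0086 with the block, 0.084 and 0.097 with limma. Left-out mice gave ratio differences of -0.14 to 0.27 for Scnn1b to Scnn1a, -0.15 to 0.35 for Scnn1g to Scnn1a, -0.88 to 0.28 for Avpr2 to Aqp2 and -0.40 to 0.34 for Gata3 to Aqp2. Counting depth bears most on Aqp4, with 22 to 171 counts per library, and on Avpr2, with 82 to 346.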

Other observations

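Near Aqp2 on chromosome 15 the files list the related water channel genes Aqp5 and Aqp6. Aqp5, which starts 6482 bases after the end of Aqp2, had 1 to 12 counts per library. Aqp6, an intercalated cell water channel gene, was 47.3 and 42.0 CPM in the controls and 41.9, 30.9 and 7.86 CPM in the Ksp-Cre/Prdm16fl/fl mice, so mouse 3 had the lowest Aqp6 and the highest Aqp2 of the 5 libraries.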
